A study of Mus musculus with 4 samples.

Results

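The genes described here in activated mouse CD8+ T cells were the NR4A nuclear receptor genes *Nr4a1*, *Nr4a2* and *Nr4a3* and the HMG-box genes *Tox* and *Tox2*. They were taken by symbol from the deposited gene tables, and all 5 were found among the 17559 genes listed in any library and among the 12943 genes tested. The cells were CD8+ T cells from tissue labelled LN of C57BL/6 mice with the OT-I genotype, a transgenic T cell receptor specific for an ovalbumin peptide. Magnetic negative selection had brought them above 95% purity. They had spent 2 d with IL-2 (10 ng/ml) on plates that carried antibodies to CD28 (2 µg/ml) and CD3 (1 µg/ml), and another 2 d in IL-2 alone. The Ctrl group (2 libraries) then received the control treatment, and the NaBu group (2 libraries) received 1 mM NaBu for 12 h, so both groups had been activated and were resting from antibody when the treatment began. NaBu commonly stands for sodium butyrate, the salt of a short-chain fatty acid, which inhibits histone deacetylases. Both groups carried the same receptor transgene, no library is labelled as chronically stimulated or exhausted cells, and the labels do not say whether replicates were separate cultures or animals. The spread that the p-values measure is therefore that of these 4 samples alone, and it may be technical.

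The NR4A proteins are orphan nuclear receptors that act without a known activating hormone and are made within hours of T cell receptor and calcium signalling. In CD8+ T cells under lasting stimulation, they and TOX, a DNA-binding protein with an HMG box, are known as transcription factors of the exhausted state. TOX2 is a relative of TOX with a nearly identical HMG box, known from follicular helper T cells and from exhausted T cells. The comparison asks how butyrate exposure changed the messages of these factors in cells outside that setting.

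Library totals lay between 19857701 and 20548571 expected counts, and replicates differed by more than sampling noise (chi-square over its degrees of freedom was 7.27 within Ctrl and 2.77 within NaBu). The T cell genes of the identity list were present in every library, with *Cd3e* at a mean FPKM of 309.3 in Ctrl and 295.4 in NaBu and *Cd8a* at 117.1 and 95.4. FPKM, which counts fragments per kilobase of transcript relative to all mapped fragments of a library, is the scale of every level given here. Marker levels of other cells were compared as lists. The counts of higher and lower genes in this paragraph stand beside 34.5% of all tested genes called higher in NaBu and 34.1% called lower. Of 8 B cell markers, *Ms4a1* and *Pax5* were at 0 in all libraries and the summed FPKM was 4.15 to 5.79 in Ctrl and 2.05 to 2.74 in NaBu, with the only tested gene lower. Of 13 myeloid and dendritic markers, *Lyz2*, *Csf1r* and *Clec9a* were at 0 in all libraries, while the summed FPKM was 70.4 to 77.1 in Ctrl and 109.3 to 119.2 in NaBu. Of its 7 tested genes 5 were higher and 1 lower, with *Itgam*, an integrin gene, going from 0.45 to 4.31 and *Cd68*, a lysosomal membrane gene, from 10.5 to 27.8. The lower gene was *Xcr1*, which went from a mean FPKM of 2.015 to 0.8, and *Fcgr3* did not pass (edgeR adjusted p = 0.801). *Cst3* supplied most of this sum, at a mean FPKM of 56.8 in Ctrl and 73.55 in NaBu. For 8 markers of CD4+, regulatory and follicular helper T cells the summed FPKM was 69.7 to 70.0 in Ctrl and 72.6 to 73.4 in NaBu, with 5 of the 8 below 1 FPKM in every library, 2 of the 6 tested higher and 2 lower. *Cd4*, the defining gene of CD4+ T cells, was one of those that rose, with 1 and 2 counts in Ctrl and 41 and 40 in NaBu (edgeR adjusted p = 8.87e-06), an FPKM of at most 0.66. For 7 NK cell markers the summed FPKM was 122.4 to 133.4 in Ctrl and 185.3 to 193.9 in NaBu, with *Klra8* at 0 throughout, 1 of the 4 tested higher and 2 lower. The higher gene was *Eomes*, also an effector T cell factor, which went from a mean FPKM of 73.1 to 134.4, while the NK receptor gene *Klrb1c* went from 9.86 to 5.26. Of the 10 T cell identity genes, 8 were lower and 1 higher. The part of these markers in the changes below was not tested. In bulk RNA, more cells with a message and more message per cell cannot be told apart.

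All 5 genes were higher in NaBu. Each passed the quasi-likelihood test of edgeR at 0.05 after Benjamini-Hochberg adjustment over all tested genes. The background was wide: 34.5% of tested genes were called higher, 34.1% lower and 68.6% in either direction, or 58.2% of the calls higher with library totals as the only scaling and 60.4% with upper-quartile factors against 50.3% here. In each of the 5 the lower NaBu library lay above the higher Ctrl library, which was so for 48.0% of tested genes. *Nr4a1*, *Nr4a2*, *Tox* and *Tox2* were low in the controls, between no reads at all and an FPKM of 1.5, and *Nr4a3* stood above them. The changes ran from 1.79-fold for *Nr4a3* and *Tox* to 6.48-fold for *Nr4a1*, and *Tox2* went from 0 reads to a clear signal.

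**Figure D1:**
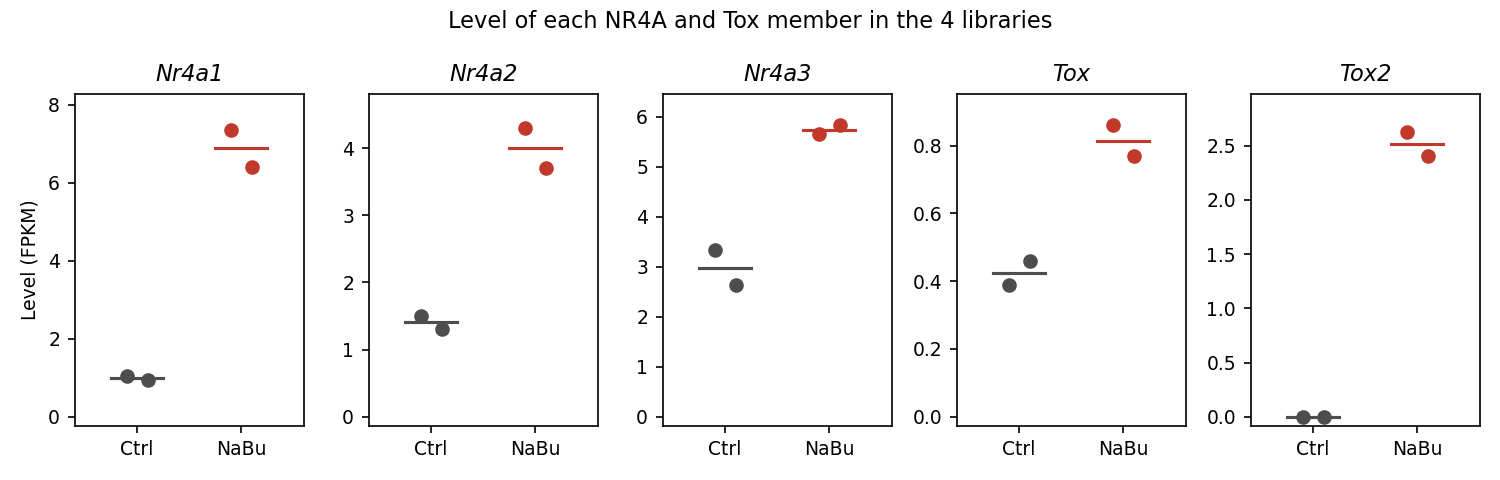
Level in FPKM (vertical axes, each from 0) of the 5 genes in the Ctrl and NaBu libraries, with 1 point per library and a line at the group mean. In every panel both NaBu points lie above both Ctrl points, and *Tox2* is at 0 in Ctrl.

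*Nr4a1* encodes Nur77, the receptor whose reporter is used as a read-out of T cell receptor signal strength. Its gene (Entrez 15370) lies on mm10 chromosome 15 from 101253902 to 101274795, plus strand. *Nr4a1* stood at 1.04 and 0.94 FPKM in Ctrl 1 and Ctrl 2, against 7.35 and 6.41 in NaBu 1 and NaBu 2, from 54, 49, 371 and 324 counts. Both NaBu libraries were far above both controls, and the exact 95% binomial intervals of its share of each library in CPM (counts scaled to the library total) did not meet (at most 3.46 CPM in Ctrl, at least 14.6 in NaBu). These intervals cover counting error only. The log2 fold change was 2.70 ± 0.14 SE (edgeR, adjusted p = 7.35e-08). That placed *Nr4a1* at position 582 of 12943 tested genes ordered from the largest rise, within the first 4.5%. Even so, its level in NaBu remained modest, above that of 44.5% and 41.3% of tested genes, up from 18.6% and 18.4% in Ctrl.

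*Nr4a2* encodes Nurr1, which like Nur77 can pair with the retinoid X receptors. Its gene (Entrez 18227) lies on chromosome 2 from 57106830 to 57124003, minus strand. *Nr4a2* stood at 1.5 and 1.31 FPKM in the controls, against 4.31 and 3.70 in NaBu, from 95, 82, 265 and 225 counts and without overlap. It rose 2.66-fold (log2 fold change 1.41 ± 0.15 SE, edgeR adjusted p = 9.1e-06). NaBu 1 was the higher NaBu library for *Nr4a1*, *Nr4a2*, *Tox* and *Tox2* alike.

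*Nr4a3* encodes NOR-1, the member that is not known to pair with retinoid X receptors. Its gene (Entrez 18124) lies on chromosome 4 from 48045078 to 48086447, plus strand. *Nr4a3* stood at 3.34 and 2.63 FPKM in the controls, against 5.65 and 5.83 in NaBu. It was the highest of the 5 genes in both controls and rose 1.79-fold (log2 fold change 0.84 ± 0.09 SE, edgeR adjusted p = 1.28e-05). Expected counts order the libraries differently, with 282 and 292 in Ctrl and 554 and 513 in NaBu. By counts the controls differed little and NaBu 1 was higher, whereas by FPKM Ctrl 1 exceeded Ctrl 2 and NaBu 2 was higher.

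The deposited transcript length of *Nr4a3* moved with this. RSEM, the program that made the counts, reports for each gene the mean length of its transcripts weighted by their estimated abundance, and *Nr4a3* has 2 listed transcripts. The length was 4106 bases in Ctrl 1, 5350 in Ctrl 2, 4892 in NaBu 1 and 4386 in NaBu 2, so the replicates of each group were assigned different mixtures. Between the controls the lengths differed 1.3-fold. Among 3429 genes with several listed transcripts and at least 50 counts in every library, *Nr4a3* was the only gene with a ratio that large between the controls. The lengths of *Nr4a2*, which also has 2 listed transcripts, stayed between 3044 and 3088 bases, and *Nr4a1*, *Tox* and *Tox2* have a single listed transcript each. With the deposited lengths as offsets in the edgeR fit, an alternative chosen after the lengths had been seen, the log2 fold change of *Nr4a3* was 0.86 ± 0.11 (SE), close to 0.84 without them.

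**Figure D2:**
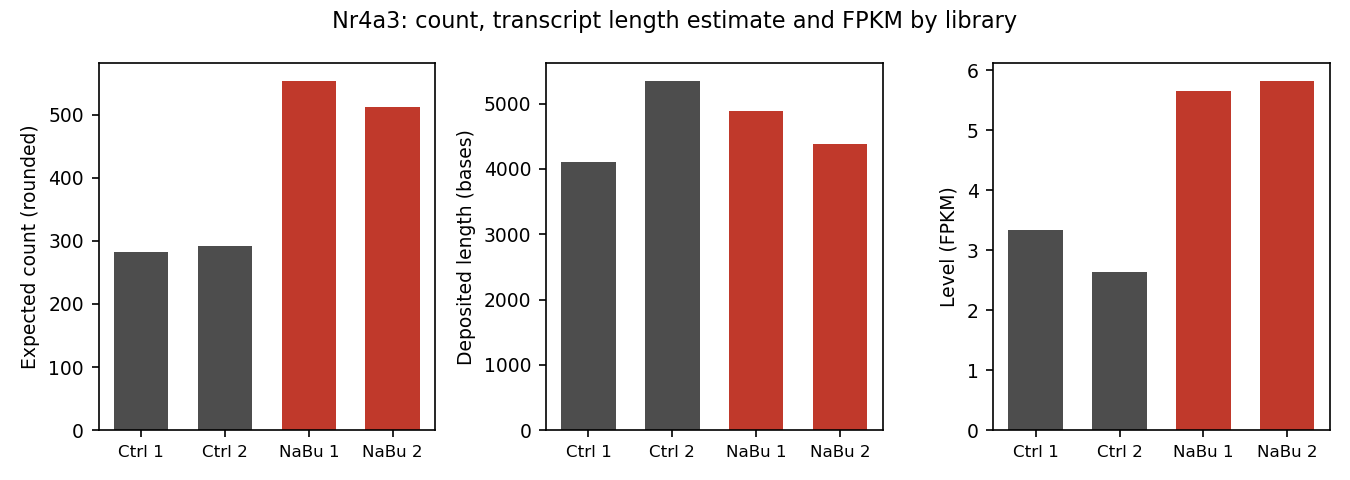
Expected count, deposited transcript length in bases and FPKM of *Nr4a3* in each library (bars from 0). The counts of Ctrl 1 and Ctrl 2 are 282 and 292, but the length is 4106 in one and 5350 in the other, and the FPKM is 3.34 and 2.63.

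The make-up of the family differed between the groups. The summed FPKM of the 3 NR4A genes was 5.88 and 4.88 in Ctrl and 17.31 and 15.94 in NaBu. *Nr4a3* supplied 56.8% and 53.9% of it in the controls and 32.6% and 36.6% in NaBu. *Nr4a1* went the other way, from 17.7% and 19.3% to 42.5% and 40.2%. *Nr4a2* supplied between 23.2% and 26.8% in every library. The order of levels in Ctrl was *Nr4a3*, *Nr4a2*, *Nr4a1*, and in NaBu it was *Nr4a1*, *Nr4a3*, *Nr4a2*, with no overlap between neighbouring genes in either group. The place of *Nr4a3* in that order rests on its length estimates, and its counts in NaBu (554 and 513) were above those of *Nr4a1* (371 and 324). The difference in fold change between members was not tested, and 2 libraries against 2 allow no exact permutation p below 0.33.

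**Figure D3:**
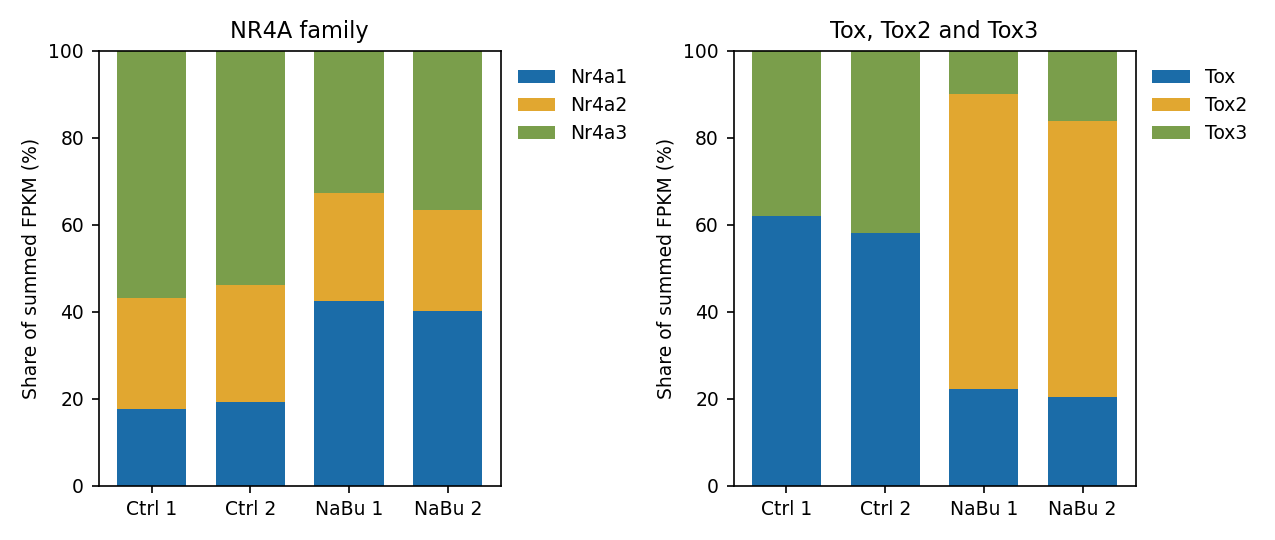
Share of the summed FPKM (vertical axis, percent) that each gene supplied in each library, for the 3 NR4A genes (left) and for *Tox*, *Tox2* and *Tox3* (right). *Nr4a1* grows from 17.7% and 19.3% in Ctrl to 42.5% and 40.2% in NaBu, and *Tox2* from 0 to 67.8% and 63.6%.

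Stretches at annotated start sites of the 3 NR4A genes are shown because the genes rose together and because these promoters are known for cyclic AMP response elements, the sites of CREB. They are RefSeq windows on GRCm38.p6 (mm10), read 5′ to 3′ on the strand of the gene, with the core of the element, TGACG on either strand, in capitals. *Nr4a1* is shown for chr15:101266596-101266845 (plus strand), the 250 bases before the start of its listed transcript at 101266846, which lies inside the annotated gene and downstream of the gene's own start. *Nr4a2* is shown for chr2:57124004-57124253 (minus strand), before the start of the longer of its annotated spans, and its other listed transcript starts within the gene at 57115038. *Nr4a3* is shown for chr4:48045055-48045107 (plus strand), the first 53 bases of its window. The RefSeq start behind that window is at 48045305, but the annotated gene starts at 48045078, inside the printed stretch, so the first printed core ends at the gene's first base and the other two lie past it.
Nr4a1: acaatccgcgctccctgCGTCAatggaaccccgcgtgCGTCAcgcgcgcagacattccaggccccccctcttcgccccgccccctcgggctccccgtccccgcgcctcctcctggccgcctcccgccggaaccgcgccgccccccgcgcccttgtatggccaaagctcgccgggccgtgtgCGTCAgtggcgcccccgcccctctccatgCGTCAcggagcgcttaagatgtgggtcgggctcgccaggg
Nr4a2: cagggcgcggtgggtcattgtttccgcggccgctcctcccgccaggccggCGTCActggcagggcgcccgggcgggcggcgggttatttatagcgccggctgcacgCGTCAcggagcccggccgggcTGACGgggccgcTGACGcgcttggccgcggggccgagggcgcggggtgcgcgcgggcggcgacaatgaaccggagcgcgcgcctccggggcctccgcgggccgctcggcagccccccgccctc
Nr4a3: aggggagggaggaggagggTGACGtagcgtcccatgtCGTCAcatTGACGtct
Each of the 3 windows of 250 bases before a RefSeq start held 4 cores, of which 3 fall in the printed stretch of *Nr4a3*. Of 32851 RefSeq windows of that length, 17.8% held at least 1 core and 0.137% (45 windows) held 4 or more. The windows are rich in G and C (74.4% for *Nr4a1*, 80.0% for *Nr4a2* and 63.6% for *Nr4a3*), and among the 9178 windows with 60% or more, 0.37% held 4 or more cores. The motif was picked because these promoters are known for it, and the cutoff of 4 is the number found in them. The 3 windows are also among those counted, so these shares are a description and add no support. None of the 3 held the complete palindrome TGACGTCA, which contains the core on both strands and was found in 1.55% of windows. None held AAAGGTCA, the element that NR4A monomers bind, found in 1.34% of windows. Other motifs were present. GGGCGG, an SP1 site, had 3 matches in *Nr4a1*, 4 in *Nr4a2* and 1 in *Nr4a3*, and 32.7% of windows held it. The *Nr4a1* window held 1 EGR site (GCGGGGGCG, in 2.57% of windows). That of *Nr4a2* held 1 MEF2 site (in 2.92% of windows) and 1 GGAAA, the core of NFAT sites (in 55.6%). A match is a description of the letters and does not show that a protein was bound. The files hold no measurement of binding.

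*Tox2* had the largest difference of the 5 genes. Its gene (Entrez 269389) lies on chromosome 2 from 163203058 to 163324172, plus strand. *Tox2* was not listed in either control library and was set to 0 counts there. It had 87 and 80 counts in NaBu 1 and NaBu 2, an FPKM of 2.63 and 2.41. A count of 0 allows up to 0.147 and 0.146 CPM in the 2 controls, taken as 3 counts of each total. Over the groups, 167 counts in NaBu stood against a limit of 3 in Ctrl, which by this limit makes *Tox2* at least 57.3-fold higher on library totals. The bound allows for counting error in Ctrl only, not for that in NaBu or for the spread between replicates. The edgeR test, which is of any difference and not of this bound, gave an adjusted p of 1.03e-06. Of the 62 tested genes with no count in either control, *Tox2* had the 2nd most counts in NaBu. Such genes, *Tox2* among them, passed the count filter through NaBu alone, so that place describes a level and adds no support. The *Tox2* level in NaBu lay above that of 25% and 23.9% of tested genes.

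The counts of *Tox2* rest on its single listed transcript of 1675 bases. The GENCODE transcript matched to it has 9 exons and starts at 163225454, inside the gene and downstream of other annotated starts, so reads from exons it lacks were not counted. The 250 bases before that start, chr2:163225204-163225453 (plus strand), are shown because they precede the only transcript under which *Tox2* was counted. Capitals mark GGAAA, the core of NFAT sites, on either strand, and GGGCGG, an SP1 site, on either strand.
Tox2: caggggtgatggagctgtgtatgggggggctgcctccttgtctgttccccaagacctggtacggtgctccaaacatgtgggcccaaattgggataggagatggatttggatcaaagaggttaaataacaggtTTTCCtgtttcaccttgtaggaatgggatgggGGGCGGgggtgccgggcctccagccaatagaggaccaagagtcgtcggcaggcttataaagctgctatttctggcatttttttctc
This window held 1 match of each, which 55.6% and 32.7% of all windows also hold, and no TGACG. Of the 5 RefSeq windows of *Tox2*, none held more than 1 such core.

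*Tox*, the factor after which the family is named, started from few reads and had a small change. Its gene (Entrez 252838) lies on chromosome 4 from 6686353 to 6991557, minus strand. *Tox* stood at 0.39 and 0.46 FPKM in the controls, against 0.86 and 0.77 in NaBu, from 23, 27, 49 and 44 counts. The groups did not overlap, but the counting intervals did, reaching 1.91 CPM in Ctrl 2 and starting at 1.61 in NaBu 2. The log2 fold change was 0.84 ± 0.26 SE (edgeR, adjusted p = 0.0138). The call was lost without Ctrl 1 (0.73, edgeR adjusted p = 0.0667), without NaBu 1 (0.76, edgeR adjusted p = 0.0932), with DESeq2 (0.84, adjusted p = 0.157) and against a 1.5-fold null (edgeR glmTreat, adjusted p = 0.19). Over its 14 alternatives the adjusted p ran from 0.00639 to 0.19. An antisense gene, *Gm11802*, spans an exon of *Tox*, and no strand setting for these libraries is given in the sources used here, so reads of the 2 genes cannot be told apart there.

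The other members of the family are *Tox3* and *Tox4*. *Tox4*, a broadly expressed member that takes part in a phosphatase complex, stood at 29.1 and 28.8 FPKM in Ctrl, against 36.5 and 35.4 in NaBu. It rose 1.16-fold (edgeR adjusted p = 0.00679), a call lost without NaBu 1 (0.19 on the log2 scale, edgeR adjusted p = 0.121), without NaBu 2 (0.23, edgeR adjusted p = 0.0668) and against the 1.5-fold null. *Tox3* stood at 0.24 and 0.33 FPKM in Ctrl, against 0.39 and 0.61 in NaBu and did not pass (1.62-fold, log2 fold change 0.69 ± 0.34 SE, edgeR adjusted p = 0.09), from 16 to 39 counts per library. With upper-quartile factors it passed (0.82, edgeR adjusted p = 0.0491), and its adjusted p over the alternatives reached 0.515. *Tox4* supplied 97.9% and 97.3% of the family's FPKM in Ctrl and 90.4% and 90.3% in NaBu. Leaving it aside, *Tox2* went from 0 to 67.8% and 63.6% of the remaining FPKM, and *Tox* from 61.9% and 58.2% to 22.2% and 20.3%. In NaBu the *Tox2* level was therefore above that of *Tox*, the reverse of the order in Ctrl.

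**Figure D4:**
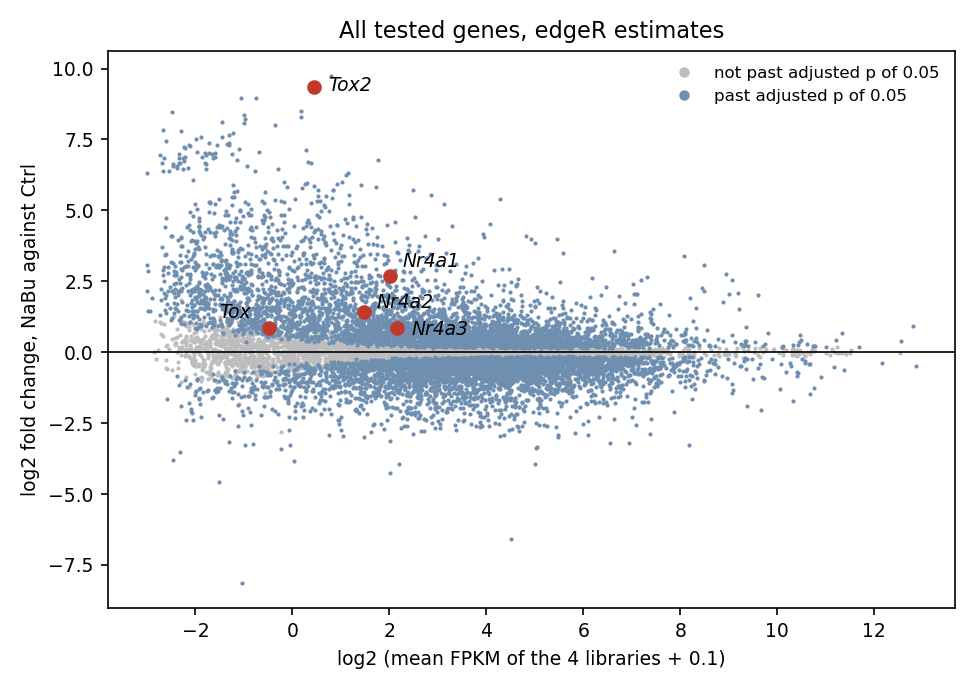
Log2 fold change of NaBu against Ctrl (vertical axis, edgeR estimate) against log2 of the mean FPKM plus 0.1 (horizontal axis) for the 12943 tested genes, with the 5 genes in red. All 5 lie above 0 and in the lower part of the range of levels, and the height of *Tox2*, like that of other genes with no reads in Ctrl, depends on the model's prior count.

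Early genes of T cell receptor signalling, NFAT and calcineurin genes, and partners and regulators of the NR4A genes were examined as lists. Their place upstream or downstream of the NR4A genes was not tested. These lists were written with earlier results of these data known and are given as counts only, beside a median log2 fold change of 0.005 over all tested genes. The background for each count is that 34.5% of all tested genes were higher and 34.1% lower. Of 20 early genes of T cell receptor signalling, 15 were higher and 3 lower, with a median of 1.34, or 16 and 2 with library totals as the only scaling. *Fos*, an AP-1 gene, rose 37.4-fold (mean FPKM 0.42 ± 0.0 in Ctrl and 16.8 ± 3.85 in NaBu, SD, n = 2 each). *Egr2* and *Egr1*, early growth response factors that are also induced by the receptor, rose 12.0-fold and 8.51-fold. *Spry1*, an inhibitor of the same kinase pathway, rose 6.14-fold. *Nr4a1*, at 6.48-fold, stood between *Egr1* and *Spry1*, while *Nr4a2* and *Nr4a3* rose less than *Egr3*, at 3.06-fold. *Nfkbid*, *Jun* and *Fosl2* were the 3 lower genes. The call of *Fosl2* was lost without Ctrl 1, NaBu 1 or NaBu 2 (edgeR adjusted p = 0.121, 0.225 and 0.0594) and with library totals (edgeR adjusted p = 0.129).

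All 10 genes of the NFAT and calcineurin list passed, beside 68.6% of all tested genes. Of the 10, 7 were higher and 3 lower, but none changed as much as 2-fold (median 0.20). *Nfatc2*, the NFAT factor that drives both NR4A and *Tox* transcription under lasting calcium signals, rose 1.59-fold (mean FPKM 34.6 ± 1.73 in Ctrl and 59.0 ± 1.03 in NaBu, SD, n = 2 each). *Ppp3ca*, a catalytic chain of calcineurin, rose 1.68-fold, whereas *Ppp3cc*, another catalytic chain, fell 1.57-fold. Against the 1.5-fold null the calls of *Nfatc2* and *Ppp3cc* were lost (edgeR glmTreat, adjusted p = 0.115 and 0.171). *Nfatc1* had a log2 fold change of 0.15 ± 0.06 (SE, edgeR adjusted p = 0.0375), and this call was lost under 6 alternatives, among them the replicate block (edgeR adjusted p = 0.0881), leaving out NaBu 1 (edgeR adjusted p = 0.179) and leaving out NaBu 2 (edgeR adjusted p = 0.277).

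Among the partners and regulators of the NR4A genes, 6 of 12 tested genes were higher and 5 lower (median 0.19), or 7 and 5 on library totals. *Hdac7*, a class IIa deacetylase that represses *Nr4a1* together with MEF2 factors in thymocytes, fell 1.96-fold, from an FPKM of 81.3 and 69.3 to 38.6 and 43.1. *Mef2d* had a small rise of 0.26 on the log2 scale, which was lost without NaBu 2 (edgeR adjusted p = 0.079). *Rxra*, a heterodimer partner of Nur77 and Nurr1, rose 1.63-fold, while *Trim28*, a corepressor, fell 1.5-fold. *Creb1* and *Crem*, whose proteins bind cyclic AMP response elements, were lower, by 0.40 and 0.43 on the log2 scale. Against the 1.5-fold null their calls were lost, as were those of *Rxra* and *Trim28* (edgeR glmTreat, adjusted p = 0.0663 and 0.603).

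**Figure D5:**
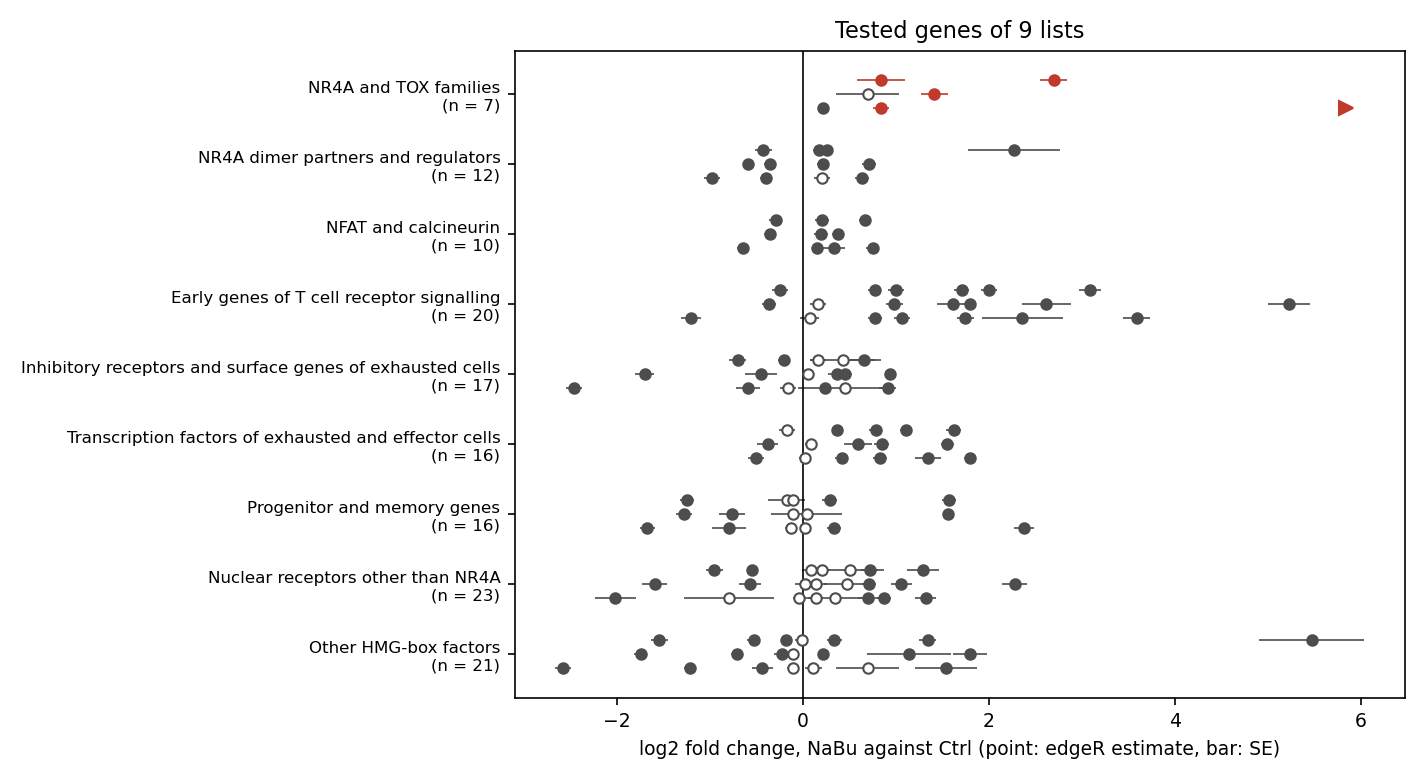
Log2 fold change of NaBu against Ctrl with its SE (horizontal axis, edgeR) for the tested genes of 9 lists (rows), with the 5 genes in red, filled points past an adjusted p of 0.05 and open points not. *Tox2* is drawn as an arrow at its lower bound of 5.84, which covers counting error in Ctrl only. The early genes lie mostly to the right of 0 and the inhibitory receptors on both sides of it.

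Of 17 tested surface genes that mark exhausted cells, 6 were higher and 6 lower (median 0.16), or 8 and 4 on library totals. These counts lie near the shares over all tested genes, 34.5% higher and 34.1% lower. *Ctla4* and *Tigit*, inhibitory receptor genes, rose 1.91-fold and 1.88-fold. *Cd160* and *Cd244*, further inhibitory receptor genes, fell 5.52-fold and 3.26-fold. *Lag3* fell 1.63-fold (mean FPKM 31.9 ± 4.63 in Ctrl and 20.9 ± 0.099 in NaBu, SD, n = 2 each). *Pdcd1*, the gene of PD-1 and a known target of NR4A and TOX, rose 1.29-fold, and *Havcr2*, the gene of TIM-3, 1.18-fold. The *Pdcd1* and *Havcr2* calls were lost without NaBu 2 (0.26 and 0.21 on the log2 scale) and against the 1.5-fold null. That of *Lag3* was also lost against this null (edgeR glmTreat, adjusted p = 0.122).

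Transcription factors shared by effector and exhausted cells were mostly higher, 11 of 16 against 2 lower (median 0.69), or 12 and 2 on library totals. Of all tested genes, 34.5% were higher and 34.1% lower. The lists share genes: *Irf4* is also counted among the early genes of T cell receptor signalling, and *Eomes* among the NK cell markers. *Irf4*, which NFAT and AP-1 signals induce, rose 3.46-fold, *Prdm1*, the gene of Blimp-1, 3.07-fold, *Maf* 2.93-fold and *Batf3* 2.54-fold. *Nr4a2* and *Nr4a3* rose less than these 3 largest changes, and *Nr4a1* more. Progenitor and memory genes, with 5 of 16 higher and 5 lower, lay near the shares over all tested genes, 34.5% higher and 34.1% lower. *Klf2*, a regulator of trafficking, *Ccr7*, a homing receptor, and *Foxo1*, a factor of quiescence, rose 5.17-fold, 2.96-fold and 2.96-fold, and *Cd27*, a costimulatory receptor, fell 3.19-fold. *Tcf7*, the gene of TCF-1 that marks progenitors of exhausted cells, stood at 50.4 and 54.4 FPKM in Ctrl, against 51.7 and 51.3 in NaBu and did not pass (edgeR adjusted p = 0.156). Without Ctrl 1 it was called lower (edgeR adjusted p = 0.0237).

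The structural families of the 5 genes were counted as well, and their shares of higher genes lay near the 34.5% of all tested genes. Of 23 tested nuclear receptor genes outside NR4A, 8 were higher and 5 lower (median 0.20), or 10 and 5 on library totals. The largest changes among those at 1 FPKM or above in at least 2 libraries were those of *Vdr*, the vitamin D receptor, which rose 4.84-fold, *Nr1d2*, a clock gene, which fell 4.05-fold, *Thrb*, a thyroid hormone receptor, which fell 3.02-fold, and *Rarg*, a retinoic acid receptor, which rose 2.5-fold. *Nr4a1* thus had a larger rise than each of these 23 genes. Of 21 tested HMG-box genes other than *Tox* and *Tox2*, 7 were higher and 9 lower (median -0.10), or 7 and 7 on library totals. *Hmgb2*, *Hmgb1* and *Hmgb3*, chromatin proteins that are abundant in dividing cells, fell 5.98-fold, 3.35-fold and 2.92-fold, and *Sox4* rose 3.47-fold. *Tcf7l2*, a TCF factor of Wnt signalling below 1 FPKM in every library, had 2 and 0 counts in Ctrl and 47 and 56 in NaBu (edgeR adjusted p = 9.63e-06). *Sox12* and *Tcf7l1* also rose, 2.53-fold and 2.91-fold. No test compared the 5 genes with either family.

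The genes with the most similar pattern were found as those nearest in log2(FPKM + 1) over the 4 libraries, each gene centred on its mean, with predicted genes left out. For *Nr4a1* they included *Cadm4* and *Ctsz*, at distances of 0.0692 and 0.0923. For *Nr4a2* they were *Serpini1*, *Tfr2* and *Apol7e* (0.0192 to 0.0416), and for *Nr4a3* *Foxo3*, *Gpi1* and *Alkbh6* (0.0285 to 0.0375). For *Tox* they were *Rmnd5a*, *Fam73a* and *Arl5c* (0.0129 to 0.0183), and for *Tox2* *Adamtsl4*, *Dpf1* and *H2-DMb2* (0.0293 to 0.0437). Within a distance of 0.1 lay 4 genes for *Nr4a1*, 41 for *Nr4a2*, 54 for *Nr4a3*, 471 for *Tox* and 23 for *Tox2*. A small distance did not always mean a like fold change. On the log2 scale the 3 genes named for *Tox* rose by 0.28 to 0.31 against 0.84, and *Cadm4* by 5.43 against 2.70 for *Nr4a1*. Those named for *Nr4a3* were closer to it, at 0.67 to 0.73 against 0.84. No member was among the nearest genes of another. With a pseudocount of 0.1 in place of 1, none of these genes was among the 3 nearest again, so the lists hold for that scale only.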

How the data were processed

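RNA-seq of 2 Ctrl and 2 NaBu libraries was analysed, grouped by sample title. Reads were processed with Bowtie2 and RSEM on mm10, per the submitters' processing notes. For program versions, library chemistry and strand, nothing is given in the sources used here. Each library's deposited table lists expected counts, FPKM values and a transcript length by gene. The authors' expected counts are RSEM estimates, not normalized, and were rounded to whole numbers for testing. The authors' FPKM values were used as deposited for levels. The deposited length is RSEM's transcript length per gene in bases. Genes that a library's file leaves out were set to 0, as in the authors' series table, which otherwise held the same FPKM.

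The 5 genes and all lists were chosen with earlier results of these data known, so no p over a list is given. The test of the counts used R 4.3.3 and edgeR 4.0.16: TMM factors (0.9658 to 1.035), filterByExpr at its defaults (12943 genes kept), quasi-likelihood F test of NaBu against Ctrl with no covariates, Benjamini-Hochberg adjustment, threshold 0.05. Each SE was derived from the log2 fold change and the F statistic. The code was tested on simulated data. A count of 0 was set against 3 counts. Outside the 5 genes, those named are *Tox3*, *Tox4*, 7 genes fixed by name, up to 4 called genes per list by size of change, and the 3 nearest per member. Some genes that this rule names are not reported here. *Egr3*, *Nfkbid*, *Jun*, *Fosl2*, *Mef2d*, *Creb1*, *Crem*, *Tcf7l2*, *Tcf7l1*, *Sox12* and the marker genes were named after their values were seen. Positions come from RefSeq (GRCm38.p6) and GENCODE M21.

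Alternatives were median-of-ratios (DESeq2), upper-quartile and library-total scaling, no filter and a filter of 5 CPM in 2 libraries, DESeq2 1.42.0, limma-voom (limma 3.58.1), limma on FPKM in log2 with a pseudocount of 1 or 0.1 (at least 1 FPKM in 2 libraries) or of 1 without that filter, glmTreat against 1.5-fold, a replicate block, leaving out each library and, chosen after the data were seen, length offsets.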

Additional observations from a re-analysis of the deposited data

How the results depend on the processing

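*Nr4a1*, *Nr4a2* and *Nr4a3* were higher and past the threshold under each of 17 alternatives, with log2 fold changes of 1.98 to 2.82, 1.06 to 1.54 and 0.76 to 0.96. *Tox2* was so under each of 16, and its fitted value (1.82 to 9.42) depends on the prior count or pseudocount because Ctrl was at 0. The filter of 5 CPM removed *Tox* and *Tox2*, and both filtered FPKM fits removed *Tox*. *Tox* was past the threshold under 10 of 14 alternatives and higher in each. It did not pass with DESeq2 (0.84) or glmTreat (0.84), and leaving out single libraries gave 0.73 to 0.95. Leaving out a library leaves 1 sample in a group, which is then assumed to vary like the other group.

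Against a 1.5-fold null, 2214 genes were higher and 1565 lower, against 4471 and 4413. Without single libraries the counts were 3617 to 4418 higher and 3479 to 4432 lower. Over the 12943 genes, the median log2 fold change was 0.005 with TMM, 0.129 with upper-quartile factors and 0.102 with library totals. Directions are relative to the TMM scale. Of 56 list genes recomputed, 36 kept their direction and side of the threshold under each alternative run, and *Tcf7* changed sign with upper-quartile factors (0.021, not past the threshold); the cause was not tested.

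The replicate numbers are shared by title only, and deviations of Ctrl 1 and NaBu 1 from their group means had a correlation of -0.031 across genes. With the replicate block, 4468 genes were higher and 4385 lower, and the 5 genes kept their calls. Depth limits *Tox*, at 23 to 49 counts per library, and *Tox2*, for which 0 counts in Ctrl allow only a bound.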
